A study of Arabidopsis thaliana with 4 samples.

Results

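BGLU21 (AT1G66270) and BGLU28 (AT2G44460) are beta-glucosidase genes of Arabidopsis thaliana, and their transcripts were followed in rosette leaves deprived of nitrate, phosphate or potassium. These 2 genes were chosen by their measured signals, which were far higher on the array of potassium-deprived leaves than on the array of fully fed leaves. The platform annotation named 3602 genes in all, and each of these 2 had 1 probe set that the annotation assigned to it alone. Of 47 genes that the RefSeq table for assembly TAIR10.1 numbers as BGLU, 9 were named by a single-gene probe set, and the other 7 served as the comparison.

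Beta-glucosidases of glycoside hydrolase family 1 remove glucose from plant glucosides and so release the compound that the sugar had kept inactive, stored or soluble. Enzyme and substrate are usually kept in separate compartments until the cell is damaged or the enzyme is needed. BGLU21 belongs to a small group with BGLU22 and PYK10 (BGLU23), enzymes that accumulate in the endoplasmic reticulum and its derived ER bodies, occur mostly in roots and split scopolin, a coumarin glucoside. BGLU28 is known as a gene of sulphur deficiency, and its enzyme acts with BGLU30 in the breakdown of glucosinolates. ER bodies are constitutive in seedlings and roots, and in rosette leaves they form after wounding or jasmonate.

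The plants were ecotype Col-5 and had 4 treatments, each read on 1 single-colour Affymetrix array of total leaf RNA. All grew on agar with 1% sucrose until day 21, at 24 °C and 80% humidity, and then in hydroponics under constant light. A day length of 16 h is also recorded for all 4 samples. Leaves were taken 28 h after a nutrient was removed. The full solution held 0.25 mM KH2PO4 and 0.5 mM KOH as its phosphate and potassium sources, per the labels. The nitrate-free solution lacked calcium nitrate and held 4 mM more calcium sulphate. No nitrate salt appears in the labels' recipe of the full solution, which leaves the nitrate given to the reference plants unclear. The phosphate-free solution lacked KH2PO4 and held 0.125 mM more K2SO4. The letters in that sample's title disagree with those in its source name, and the source name and the written treatment were followed, so every phosphate value rests on them. The solution without potassium had neither KH2PO4 nor KOH and held 0.27 mM more Ca(H2PO4)2. KH2PO4 was thus missing from both the phosphate-free and the potassium-free solution. Extra sulphate is recorded for the nitrate-free and phosphate-free solutions only. Added calcium salts are recorded for the nitrate-free and potassium-free solutions only.

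With 1 array per treatment there was no replicate spread, no difference was tested, and every value describes that array only. In leaf RNA, more cells of a type and more RNA per cell cannot be told apart. The signals are linear intensities that the authors had scaled, and signals under a floor of 25.04 (0.25 of the common trimmed mean) were treated as unmeasured. A ratio with 1 side at the floor is a bound, written as at least that many fold, and the limit for calling a probe set higher or lower was 2-fold. Between 3921 and 4088 of 8247 probe sets had a signal above the floor, depending on the array. Probe sets of the same gene differed by a median of 0.27, 0.24 and 0.30 in log2 ratio to the full array (nitrate, phosphate, potassium). These medians were over 71, 69 and 69 genes. They give a spread within the same arrays only and hold no variation between arrays, RNA preparations or plants. The full-nutrient array had 312 masked cells per the labels against 0 on the others, and the part of these cells in the ratios was not tested. The tissue label was checked against marker genes. Each of the 9 named leaf markers, of 27 listed, lay above the floor on all 4 arrays, and the 3 named flower and seed markers, of 26, lay below it on all 4.

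BGLU21 was bright only on the array of potassium-deprived leaves. Its signal was 1.7 in full nutrients, 0.8 without nitrate, 5.3 without phosphate and 377.2 without potassium. The first 3 values lie under the floor and have no order among them. Against the floor, the potassium signal was at least 15.1-fold higher than each of the other arrays. The probe set annotation gives only BGLU21 for this probe set. BGLU22, its close relative and its direct neighbour in the TAIR10.1 gene table, had no single-gene probe set, and whether its transcript also binds these probes was not tested.

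**Figure D1:**
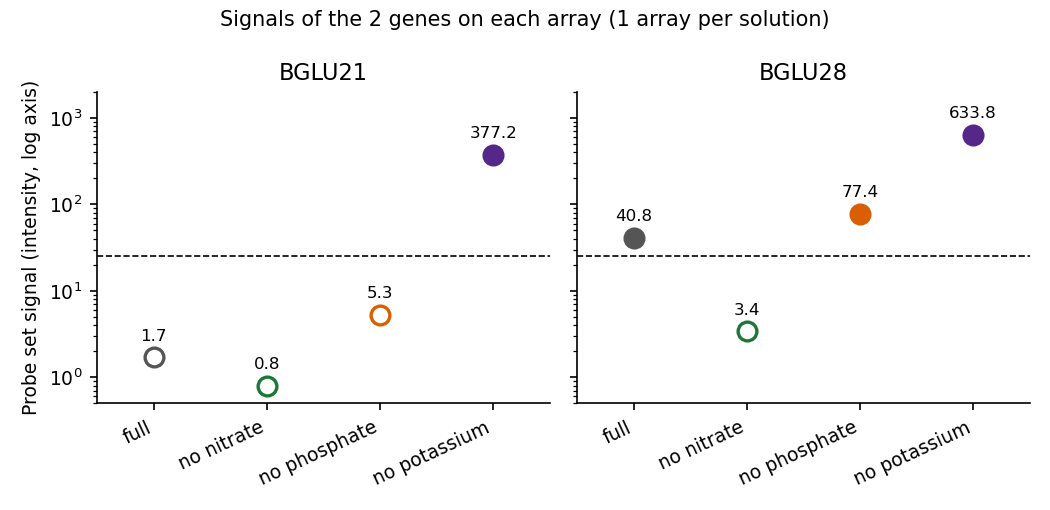
Signals of BGLU21 and BGLU28 (linear intensity on a log axis) on the 4 arrays, 1 point per array, with no error bars because each solution had 1 array. Filled points lie above the floor of 25.04 (dashed) and open points below it. BGLU21 is above it only at 377.2 without potassium, whereas BGLU28 runs from 3.4 without nitrate to 633.8 without potassium.

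BGLU28 was measurable on 3 arrays and differed among them. Its signal was 40.8 in full nutrients, 3.4 without nitrate, 77.4 without phosphate and 633.8 without potassium. The order of levels was therefore potassium-free, phosphate-free, full and nitrate-free, with the last below the floor. The potassium signal was 15.5-fold above the full-nutrient signal (log2 ratio 3.96). This was the 4th highest ratio among the 3714 probe sets measured on both arrays, and the 3rd among the 1506 of them with a single named gene. The phosphate signal was 1.90-fold above the full-nutrient signal (log2 ratio 0.92), just short of the 2-fold limit. The nitrate signal was at least 1.63-fold lower than the full-nutrient signal, a bound that does not reach the limit because the full-nutrient signal itself was near the floor. With a lower floor of 0.1 of the trimmed mean the bound passed 2-fold (log2 ratio -2.03), and with a floor of 0.5 both arrays lay at the floor (0.00), so the nitrate difference depends on how dim signals are read.

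Both genes were at least 2-fold higher without potassium than in full nutrients, where 3.65% of all probe sets were. Since they were picked on that comparison, nothing is read from this count. Neither was at least 2-fold higher without nitrate (0.424% of probe sets) or without phosphate (1.86%), and neither was at least 2-fold lower without nitrate (0.570%).

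The named genes next to BGLU28 in the potassium ranking were also read. Above BGLU28 were OSM34, an osmotin-like gene, at 23.1-fold and AT1G09500 at 20.6-fold. Below it came AT4G17470 at 9.36-fold and SAG29 (SWEET15), a senescence-linked sugar transporter gene, at 6.44-fold. Other named genes at the floor in full nutrients and bright without potassium were AT2G38380, at least 13.9-fold higher, and ChiC, a chitinase gene, at least 9.81-fold higher. Such bounds reflect the potassium signal over a common floor and give no order between genes. ChiC had signals of 3.6, 15.0, 87.8 and 245.7 in the order full, nitrate-free, phosphate-free and potassium-free, so it was above the floor without phosphate too, where BGLU21 was not. AT2G38380 had 9.4, 84.1, 82.3 and 348.8 in the same order. Unlike BGLU21, AT2G38380 was thus above the floor without nitrate and without phosphate as well.

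The depleted arrays were also set against each other, with the potassium array again the one used to pick the genes. BGLU28 was 8.19-fold higher without potassium than without phosphate, the 4th highest of 3807 ratios measured on both arrays, and at least 25.3-fold higher than without nitrate. BGLU21 was at least 15.1-fold higher in each. Both genes thus passed 2-fold where 2.07% of probe sets did against the phosphate array and 3.97% did against the nitrate array. Between the phosphate and nitrate arrays, BGLU28 was at least 3.09-fold higher without phosphate, and 2.26% of probe sets were at least 2-fold higher there. BGLU21 lay under the floor on both.

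BGLU21 was one of many probe sets that were above the floor on the potassium array alone. There were 154 of these, and 20 were at least 2-fold above it. The same pattern held for 58 probe sets on the full-nutrient array, 57 on the nitrate array and 78 on the phosphate array, of which 1, 1 and 2 were at least 2-fold above the floor.

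None of the other 7 BGLU genes was at least 2-fold higher without potassium (3.65% of probe sets) or without nitrate (0.424%), and 1 was without phosphate (1.86%). With shares this low, a count of 0 among 7 genes does not set them apart from other probe sets. BGLU29, BGLU45 and BGLU47 lay below the floor on all 4 arrays, with highest signals of 2.7, 13.1 and 9.9. BGLU45 and BGLU46 encode enzymes that act on monolignol glucosides. BGLU46 was at 5.3, 5.0 and 17.2 on the full, nitrate-free and phosphate-free arrays and was above the floor only without potassium, at 30.2. BGLU33, whose enzyme releases abscisic acid from its glucose ester, was above the floor only without phosphate, at 30.1. With a floor of 0.1 of the trimmed mean, 2 of the 7 genes in place of 0 were at least 2-fold higher without potassium.

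BGLU25 was the one other family member measured on all arrays. Its signal was 380.2 in full nutrients, 394.3 without nitrate, 648.8 without phosphate and 615.4 without potassium. It was 1.71-fold above the full-nutrient array without phosphate and 1.62-fold without potassium, and reached 2-fold on neither. Its probe set name carries an s ending, which Affymetrix uses for probes shared by several transcripts.

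BGLU15, whose enzyme breaks down flavonol glycosides, is the neighbour of BGLU28 in the TAIR10.1 gene table. BGLU15, BGLU28 and BGLU29 stand side by side there, in a row of 5 BGLU genes that ends with BGLU17 and PEN2 (BGLU26). BGLU15 had signals of 14.4, 5.2, 155.2 and 40.5 in the order full, nitrate-free, phosphate-free and potassium-free. Its highest array was thus the phosphate one, at least 6.20-fold above the full-nutrient array, and it was 3.83-fold lower without potassium than without phosphate. BGLU28 had its highest signal without potassium, so these 2 neighbours differed in which array was brightest, although both were above the floor without phosphate and without potassium. BGLU29 had no signal above the floor.

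**Figure D2:**
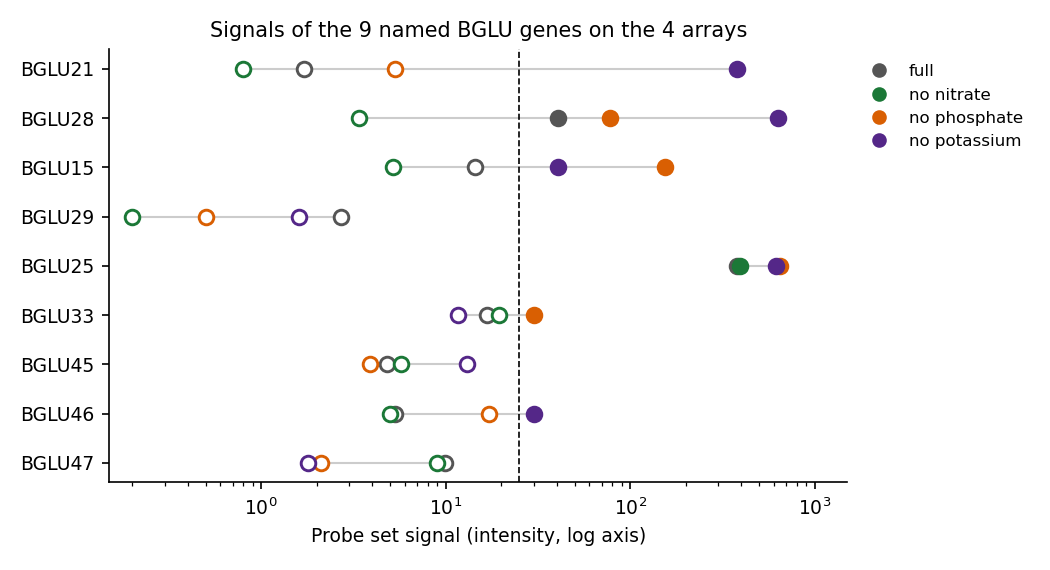
Signals of the 9 named BGLU genes (linear intensity on a log axis), 1 row per gene and 1 point per array, coloured by solution. Open points lie below the floor of 25.04 (dashed), and points can be compared along a row but not between rows, because probe sets differ in brightness. BGLU21 and BGLU28 have their highest signal without potassium (377.2 and 633.8) and BGLU15 without phosphate (155.2).

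The genes with the most similar profiles were taken from 287 named probe sets whose signals spanned at least 2-fold. Likeness was the root-mean-square difference of floored log2 signals over the 4 arrays, after each profile was centred on its mean. Since BGLU21 and BGLU28 were picked for a high potassium signal, genes near them are high there by choice. The likeness of BGLU21 and BGLU28 to each other follows at least in part from the same choice. Nearest to BGLU21 were AT4G17470 (difference 0.40), AT4G24340 (0.48), SAG29 (0.54), BGLU28 (0.58) and OSM34 (0.60). AT4G24340, like BGLU21, was below the floor on the full, nitrate-free and phosphate-free arrays, at 4.8, 2.9 and 1.4, and had 176.3 without potassium. AT4G17470 was measurable everywhere, at 46.6, 60.9, 52.1 and 436.3.

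Nearest to BGLU28 were AT1G09500 (0.43), BGLU21 (0.58), OSM34 (0.59), ChiC (0.61) and SAG29 (0.62). AT1G09500 had signals of 29.7, 34.3, 121.6 and 610.9 in the order full, nitrate-free, phosphate-free and potassium-free, and OSM34 had 44.0, 84.4, 139.9 and 1018.1. Like BGLU28, these were intermediate without phosphate and highest without potassium. Unlike BGLU28, neither was lower without nitrate than in full nutrients. Like BGLU28, SAG29 was lowest without nitrate, at 25.7, just above the floor, against 33.8 in full nutrients. SAG29, at 33.8, 25.7, 37.7 and 217.7, and OSM34 were near both genes. These neighbours depend on the floor: with a floor of 0.1 of the trimmed mean, 3 of the 5 genes near BGLU21 and 1 of the 5 near BGLU28 were still among the nearest.

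**Figure D3:**
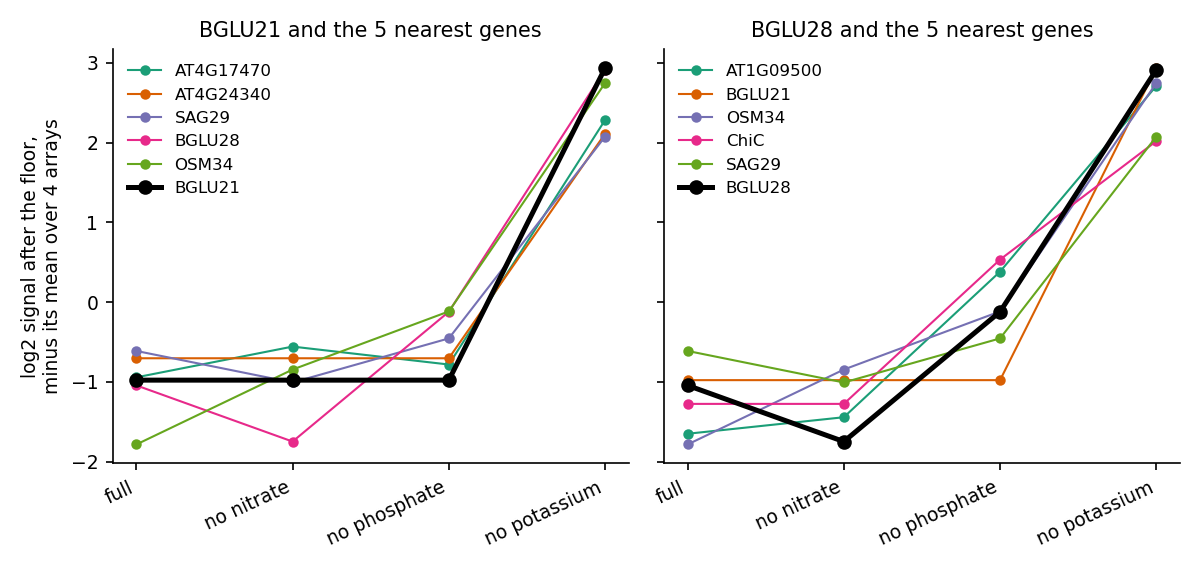
Profiles of BGLU21 (left, black) and BGLU28 (right, black) with the 5 named genes of smallest root-mean-square difference (coloured), as log2 signal after the floor minus the gene's mean over the 4 arrays. Each point is 1 array, and the lines only join the points of a gene. Every gene shown is highest without potassium, and BGLU28 and SAG29 are lowest without nitrate.

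Genes of the ER body were read next, because BGLU21 is a relative of PYK10, the main ER body enzyme. The list held 18 names, among them jacalin-related lectins and lipase-like proteins that form a complex with PYK10 when cells are broken. The annotation named 5, and 3 of the 5 were at least 2-fold higher without potassium, where 2.89% of all named genes were. The gene lists were chosen with earlier results of these data known. This count and the list median are therefore a description and no independent support. JAL23, a jacalin-related lectin gene, had signals of 24.3, 37.5, 31.6 and 158.5 in the order full, nitrate-free, phosphate-free and potassium-free, at least 6.33-fold higher without potassium than in full nutrients. GLL23 (AT1G54010), a GDSL lipase-like gene, had 103.3, 102.2, 110.0 and 386.3, a 3.74-fold ratio. JAL34, another lectin gene, had 52.7, 43.0, 29.5 and 125.8, a 2.39-fold ratio.

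JAL31 did not reach the floor on any array and had 18.9 without potassium. NAI1, a transcription factor gene needed for ER bodies, was below it as well, at 12.5, 4.7, 9.1 and 22.7. None of the 5 genes was at least 2-fold higher without nitrate (0.194% of named genes) or without phosphate (1.19%). The median log2 ratio without potassium was 1.26 over the 5 genes, with those at the floor on both arrays at 0, against 0.00 over all 3602 named genes. PYK10 itself and NAI2, a further ER body gene, were not named by a single-gene probe set.

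In the sulphur deficiency list, BGLU28 was the only 1 of 4 measured genes, of 35 names, at least 2-fold higher without potassium. It had been picked for that. Of all named genes 2.89% were, or 104 of the 1702 that were not at the floor on both arrays. The list median log2 ratio of 0.17 includes BGLU28. APS3 and APS4, genes of ATP sulphurylase, which activates sulphate, had log2 ratios of 0.00 and -0.24. SIR, the gene of sulphite reductase, had 0.33. The probe set names of APS3, APS4 and SIR carry the s ending for probes shared by several transcripts, so these values may not belong to single genes. The common sulphur starvation markers SDI1, LSU1, LSU2 and the APR genes were not named here.

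Substrate pathways of the 2 enzymes were hardly covered. In the glucosinolate synthesis list, UGT74B1, which adds the glucose in glucosinolate synthesis, had a log2 ratio of 0.17 without potassium and AOP3, a side chain enzyme gene, had 0.03. These were the 2 named of 34. None of 22 names for glucosinolate breakdown was named. In the coumarin and phenylpropanoid list, 5 of 29 were named, 3 of them BGLU21, BGLU45 and BGLU46, and the glucosyltransferase genes UGT71C1 and UGT72E3 stayed below the floor.

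Genes of sugar starvation and senescence were read because BGLU30, the partner of BGLU28, is a dark-inducible gene; BGLU30 itself was not named. Of 26 names 7 genes were measured. Without potassium, 3 were at least 2-fold higher, as were 2.89% of all named genes. With genes at the floor on both arrays left out, that is 104 of 1702. The list median log2 ratio was 0.82, against 0.00 over all named genes and 0.03 over those 1702. This list and the wound, jasmonate and defence list were also chosen with earlier results known, so their counts are a description only. The 3 genes were SAG29 at 6.44-fold, the lysine breakdown gene LKR/SDH (AT4G33150) at 4.69-fold and WRKY6, a senescence transcription factor gene, at 2.89-fold. MCCA, of leucine breakdown, was at least 1.77-fold higher, whereas MCCB, of the same enzyme, had a log2 ratio of -0.25. The autophagy genes APG8A and ATG8E had log2 ratios of 0.73 and -0.44. ATG8E was the brightest gene of the list, at 697.5 in full nutrients and 514.6 without potassium. In the wound, jasmonate and defence list, 3 of 26 were named, and OSM34 and ChiC were at least 2-fold higher without potassium (2.89% of named genes) and also without phosphate (1.19%). THI2.1, a jasmonate-responsive thionin gene, reached at most 47.7 on its 3 probe sets, without potassium. The probe sets of OSM34, LKR/SDH, MCCA and ATG8E have the s ending of shared probes as well.

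**Figure D4:**
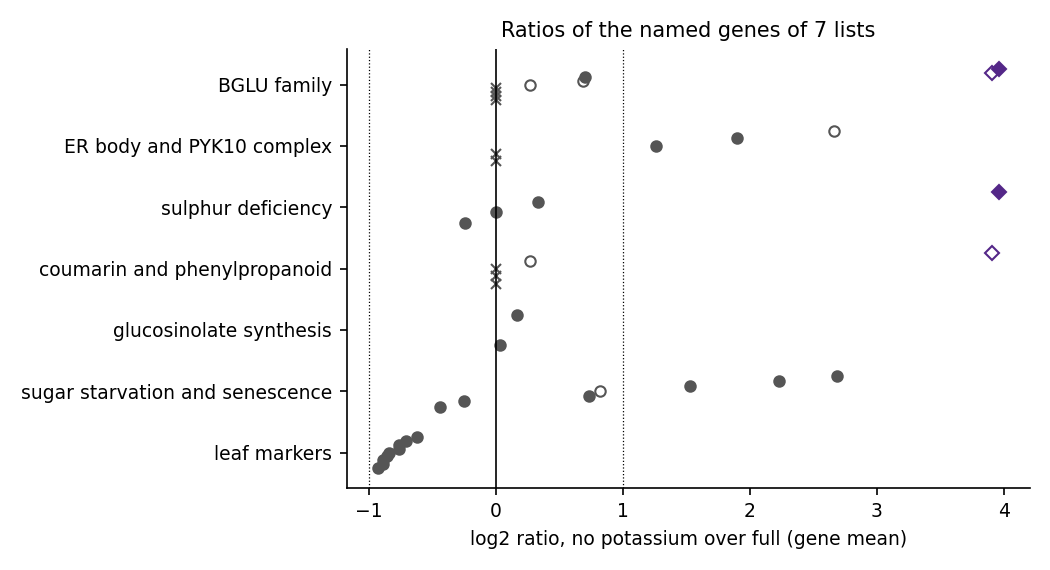
Log2 ratio of the potassium-free to the full-nutrient array for the named genes of 7 lists, 1 point per gene, as the mean over its probe sets. Filled points are measured ratios, open points bounds and crosses genes at the floor on both arrays, with BGLU21 and BGLU28 as violet diamonds and dotted lines at 2-fold. BGLU21 (3.91, a bound) and BGLU28 (3.96) were picked for their high values, the wound, jasmonate and defence list is not drawn, and all 9 leaf markers lie below 0.

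Leaf markers were lower on the array where the 2 genes were high. Each of the 9 leaf markers had a log2 ratio below 0 there, from -0.93 for PSBY, a photosystem subunit gene, to -0.62 for RCA, the Rubisco activase gene, with a median of -0.84. None reached 2-fold lower as a gene mean. Of all named genes 1.22% did, or 44 of the 1702 that were not at the floor on both arrays. Single probe sets of PSBW and PSAE-1 passed the 2-fold limit, at 2.08-fold and 2.02-fold lower. With plain probe set endings alone 1 marker gene did. Their summed signal was 45824.5 in full nutrients, 49540.6 without nitrate, 39159.7 without phosphate and 25796.4 without potassium. The highest signal of any probe set, controls included, was 6484.8 without potassium. That value was 11126.1 in full nutrients, 8980.7 without nitrate and 8791.7 without phosphate. Dimmer markers were lower too, such as LHCB4.3 at 172.5 in full nutrients and 105.5 without potassium. Whether the lower top signal bears on the marker ratios was not tested. Of the 30 root marker names the annotation held 1, BGLU21 itself, so root RNA on the potassium array could not be read from another listed gene, and its part in the BGLU21 signal was not tested.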

How the data were processed

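Leaf RNA from 4 treatments was measured on 1 array each, grouped by source name and written treatment. The authors deposited linear intensity values, 1 for each probe set of an array. How these were computed and to which target they were scaled is not given in the sources used here. Trimmed means (2% at each end) lay between 100.146 and 100.174, so the deposited intensity values share a scale. Of 8297 probe sets, 50 controls were left out. The annotation named 1 gene for 3794 probe sets, several for 70 and none for 4383, and 3784 matched RefSeq (TAIR10.1), used for names and gene order. Each array was brought to the mean of the trimmed means (100.16), floored at 0.25 of it and converted to log2 ratios with Python 3.11.15, numpy 2.4.6 and pandas 2.3.3. A gene in a list is the mean of its probe sets. There is no p-value, since each group had 1 array, and the number of arrays limits the precision. The ratio and profile likeness steps were checked on simulated arrays without noise, with changes planted only in probe sets above the common trimmed mean. That check does not cover the bounds at the floor. The genes and the 11 gene lists were chosen with earlier results of these data known. One listed name (APK1) matched an unrelated kinase gene and was left out. Named genes are the 2 genes, other BGLU genes, the 5 nearest profiles, the named genes next to them in the potassium ranking, and listed genes past 2-fold; JAL31, NAI1 and other listed genes short of it were named for completeness of their lists. No sequences are given.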

Additional observations from a re-analysis of the deposited data

How the results depend on the processing

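No paired analysis was possible because each group had 1 array and no result comes from a test. With no replicates, a log2 ratio counted as moved when it changed by more than the median difference between probe sets of a gene. Of 125 alternative values of the main results 96 stayed within that limit, or within 1.5 times for counts, and no direction past 2-fold reversed. The potassium over full log2 ratio of BGLU21 was 5.24 with a floor of 0.1 of the trimmed mean and 2.91 with a floor of 0.5, by construction of the bound. That of BGLU28 was 3.32 with a pseudocount, and its potassium over phosphate ratio was 2.69. The nitrate over full ratio of BGLU28 was -2.03 and 0.00 with the lower and higher floor, -1.21 with the pseudocount and -2.33 against the mean of the other 3 arrays. Its phosphate over full ratio was 0.63 with the higher floor, 0.64 with the pseudocount and -0.16 against the other 3 arrays, which include the bright potassium array. With the lower floor, 2 of the other BGLU probe sets were at least 2-fold higher without potassium. Probe sets at least 2-fold higher without nitrate numbered 100 and 17 with the lower and higher floor, 19 with the pseudocount, 23 among plain probe set endings (fewer tested) and 55 against the other 3 arrays. Those without phosphate numbered 259 with the lower floor and 75 against the other 3 arrays, and those without potassium 196 among plain endings. Listed genes past 2-fold without nitrate, 0 in the report, numbered 1 with the lower floor or the pseudocount and 6 against the other 3 arrays. Of the 5 genes nearest BGLU21, 3 were shared with either floor and with plain endings. Of the 5 nearest BGLU28, 1 was shared with the lower floor and 3 with the higher floor and with the pseudocount. Quantile, median and loess centring moved none of these results. For the changes not explained by construction, the cause was not tested. The alternative reference does not apply to profile likeness or to ratios between depleted arrays.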
